A study of Mus musculus with 10 samples.

Results

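The genes described here encode the enzymes and carriers that burn pyruvate and fatty acids in mitochondria. They were taken from a list of 46 mouse genes, a member being measured where a probe set of the array was annotated to that gene alone. Of the 46, 41 had such a probe set, out of 8251 genes with one on the array. The 5 without one were Pdk2, Hadha, Cpt1b, Acat1 and Acsl1. Idh3b and Acadvl stayed at background, with intensities of at most 109 on every array, and were not tested, which left 39 members among 5767 genes tested. These 39 fell into pyruvate entry (6 genes), the TCA cycle (16), fatty acid activation and the carnitine shuttle (4) and beta-oxidation with its electron transfer flavoproteins (13).

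Each of the 10 samples was total RNA of gastrocnemius, a large calf muscle, from a male mouse aged 16 weeks, hybridised to 1 array. The control group was 5 samples of normal mice and the mdx group 5 samples of mdx mice. The mdx mouse carries a mutation of the dystrophin gene in every cell and goes through rounds of fibre loss and regeneration, and the title of the series speaks of regenerated mdx muscle. No treatment, genetic background or batch is named in the labels, and neither is it stated that each array of a group had an animal of its own. The p-values therefore cover only the spread among the samples at hand, in which technical error can have a share.

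In a muscle fibre, pyruvate from glycolysis enters the mitochondrion and is turned into acetyl-CoA by the pyruvate dehydrogenase complex, which pyruvate dehydrogenase kinases switch off. Long-chain fatty acids are activated to acyl-CoA, carried across the inner membrane as carnitine esters and shortened by repeated rounds of dehydrogenation, hydration, oxidation and thiolysis. Both routes feed acetyl-CoA to the TCA cycle, whose NADH and FADH2 supply the respiratory chain. In muscle these genes are known targets of the nuclear receptors PPAR and ERR, and many mitochondrial genes of the regulator NRF-1.

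Since the members moved largely together, RefSeq promoter windows (build GRCm38.p6, the 250 bases before each annotated start), which 39 of the 46 members had, a different 39 from those tested, were searched on both strands for 3 motifs. The ERR motif TNAAGGTCA was in 0 members' windows and in those of 1.30% of 27025 genes. The PPAR direct repeat, which is AGGTCA, any base, AGGTCA, was in 0 members' windows and in those of 0.0407% of genes. Motifs this rare would be missing from most lists of 39 genes, so the counts of 0 cannot tell whether the members lack them more often than other genes. The motif searched for NRF-1, which is GCGCA, any base, GCGC, was in the windows of 5 members (12.8%), against 4.23% of genes. Windows of like base composition were not compared, and the difference was not tested. A match is a run of letters only, and was not tested as a binding site. They belong to 4 members that fell and to 1, Sdhd, that did not pass the test, where 32 of the 39 tested members fell. The 5 stretches are shown 5′ to 3′ on the gene's strand, with the match in capitals.
Etfb (chr7:43444046-43444071, plus strand): ggtcggtgttgcggcGCGCAGGCGCa
Etfdh (chr3:79628871-79628910, minus strand): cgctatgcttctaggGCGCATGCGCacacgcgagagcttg
Sdha (chr13:74350314-74350353, minus strand): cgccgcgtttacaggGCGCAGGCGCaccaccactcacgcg
Sdhd (chr9:50603904-50603943, minus strand): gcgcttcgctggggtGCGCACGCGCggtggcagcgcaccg
Sucla2 (chr14:73552754-73552785, plus strand): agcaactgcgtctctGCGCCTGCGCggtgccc

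Hadhb, the member with the smallest p, starts 273 bases from Hadha on the opposite strand of chromosome 5. The 250 bases before the start of Hadhb (chr5:30155003-30155252, plus strand) therefore span nearly the whole stretch between the starts of the genes for the beta and alpha subunits of the mitochondrial trifunctional protein. They are printed because Hadha itself had no probe set here, and they hold none of the 3 motifs.
Hadhb upstream: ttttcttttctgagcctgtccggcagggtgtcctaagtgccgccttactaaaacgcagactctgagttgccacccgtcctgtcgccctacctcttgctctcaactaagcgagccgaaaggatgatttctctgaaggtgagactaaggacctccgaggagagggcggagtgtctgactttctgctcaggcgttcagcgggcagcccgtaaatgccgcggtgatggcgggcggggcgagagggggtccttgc

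With the intensities as deposited, transcripts of oxidative metabolism were lower in mdx muscle across all 4 steps, but scaling to the hybridization controls put the median member above 0. Of the 39 members, 32 fell, 0 rose and 7 did not pass the test (limma, Benjamini-Hochberg adjusted p below 0.05 over 7612 probe sets). Among all genes tested, 18.6% were called lower and 16.1% higher. The members were brighter, with a median control intensity of 8376 against 759 over all genes tested, and changes of dim genes are understated here. These shares are thus not those of genes of like brightness. With only probe sets above the 60th percentile tested, 25.9% of genes were called lower and 17.9% higher. The log2 changes of the members, mdx minus control, ran from -1.29 to 0.14 with a median of -0.47, while the median over all genes was -0.04. For 24 of the 39, all 5 mdx arrays were below all 5 control arrays, as for 13.6% of all genes. By step, 4 of 6 genes of pyruvate entry, 13 of 16 of the TCA cycle, 3 of 4 of the shuttle and 12 of 13 of beta-oxidation fell. In the same order their medians were -0.39, -0.47, -0.64 and -0.55, and whether the steps differ was not tested. These are whole pieces of muscle, in which fewer fibres and less RNA per fibre cannot be told apart.

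**Figure D1:**
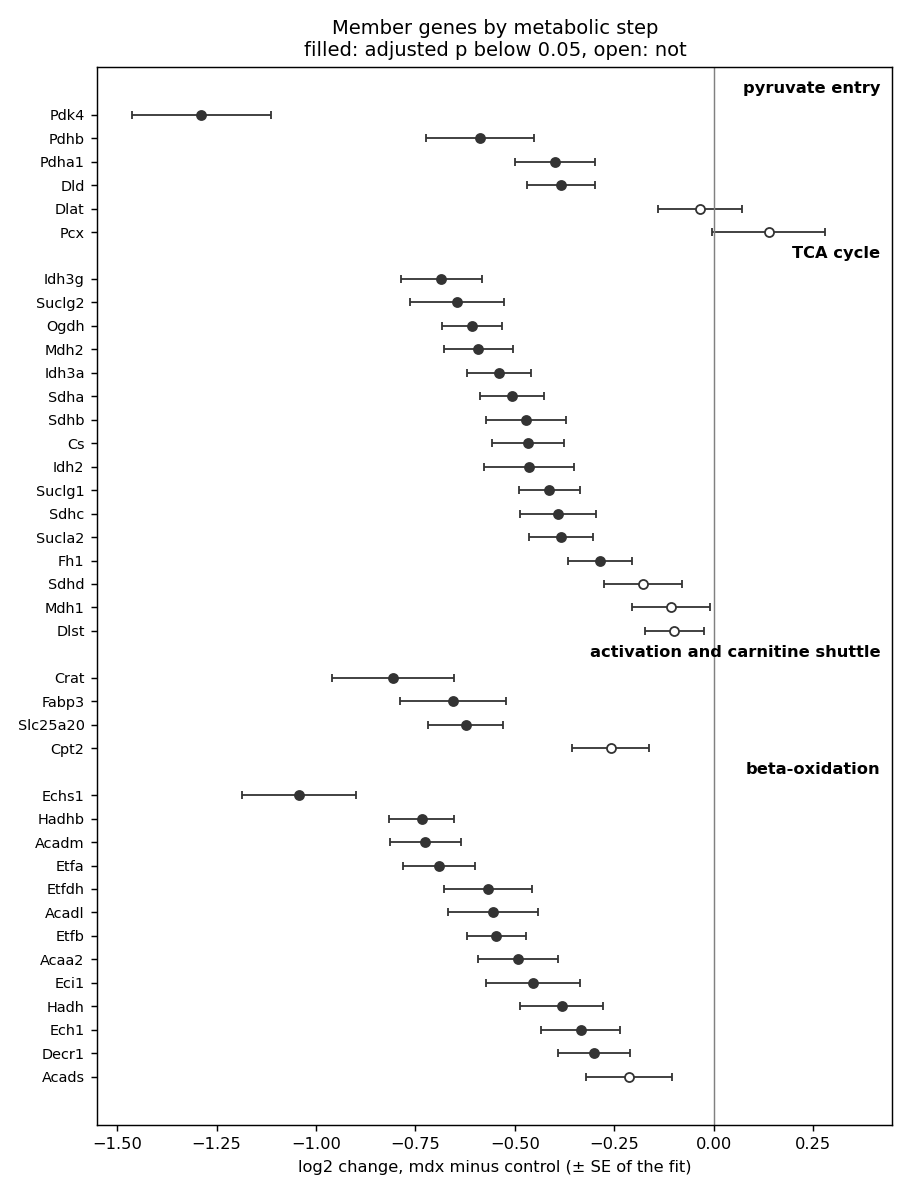
Log2 change of each tested member, mdx minus control (x axis), by metabolic step, with the SE of the fit as bars and 5 arrays per group. Filled points passed an adjusted p of 0.05. As deposited, 38 of the 39 points lie below 0, and the median of -0.47 becomes 0.14 under scaling to the hybridization controls.

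At pyruvate entry, the kinase that switches pyruvate dehydrogenase off fell, as did 3 of the 4 tested genes of the complex, although scaling to the contractile genes or to the hybridization controls turned the median of the step positive. Pdk4, the kinase induced by fasting and by fatty acids, had intensities of 9882, 16223, 17324, 9481 and 16985 on control replicates 1 to 5. On the mdx replicates it had 4621, 5497, 5700, 6209 and 4693. The control arrays lay at a lower level on replicates 1 and 4 than on the other three, and every mdx array was below both. The log2 change was -1.29 (SE 0.17, limma adjusted p = 0.000111), a fall of 59.0%, the lowest value of the members at this pseudocount, and Pdk4 remained lower under all 5 scalings. Echs1, a dimmer gene, stood at -1.04, but without a pseudocount it was at -1.44 and Pdk4 at -1.35.

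The pyruvate dehydrogenase complex has a decarboxylase of alpha and beta subunits, an acetyltransferase core and a lipoamide dehydrogenase. Pdha1, the alpha subunit, gave 21294, 16590, 22101, 22598 and 18748 in control and 13859, 14643, 17726, 14229 and 15761 in mdx. Pdhb, the beta subunit, gave 15739, 12763, 12202, 17238 and 14679 in control and 9283, 7895, 13278, 8520 and 9126 in mdx. Both groups overlapped for these genes, in each case through mdx replicate 3, the highest of its group. Pdha1 fell by 0.40 on the log2 scale (SE 0.10, limma adjusted p = 0.00834) and Pdhb by 0.59 (SE 0.14, adjusted p = 0.00493). Dld, the dehydrogenase that the complex shares with the 2-oxoglutarate dehydrogenase complex, gave 7991, 8211, 8016, 9284 and 8820 in control. In mdx it gave 6518, 5615, 7629, 6348 and 5988, with no overlap, and its log2 change was -0.38 (SE 0.09, adjusted p = 0.00378). All 3 were above 0 under scaling to the hybridization controls.

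Dlat, the acetyltransferase core, did not pass the test, with 3443 to 4295 in control, 2805 to 4508 in mdx and a log2 change of -0.03 (SE 0.11, adjusted p = 0.837). Pcx, pyruvate carboxylase, which refills the cycle with oxaloacetate, had a brightest probe set at 506 to 917 in control and 532 to 961 in mdx. Its log2 change of 0.14 (adjusted p = 0.499) was the highest among the members. The other tested probe set, at means of 273 and 84.4, gave -0.45 and did not pass either (adjusted p = 0.0545). The array also carries control-type probe sets for Pcx, which were left out of the tests. The 3′ one read 1431, 1313, 1065, 1154 and 1381 in control and 498, 378, 454, 476 and -16.6 in mdx, so that the groups did not overlap. Entered into the fit after the data had been seen, it gave -1.22 (SE 0.21, adjusted p = 0.000581), and a 5′ one gave -0.51 (adjusted p = 0.065). The probe sets for Pcx thus disagree in sign, and the 3′ control-type set was in control brighter than the set used here.

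In the TCA cycle, genes of most reactions were lower, with 13 of 16 fallen, while the median of -0.47 became 0.02 when arrays were scaled to the contractile genes and 0.15 when scaled to the hybridization controls. Cs, the citrate synthase that starts the cycle, had 12434 to 15379 in control and 8653 to 11462 in mdx, a log2 change of -0.47 (SE 0.09, adjusted p = 0.00154). Idh2, the NADP-linked isocitrate dehydrogenase, fell by 0.46 on the log2 scale with overlapping groups.

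Idh3a and Idh3g are subunits of the NAD-linked isocitrate dehydrogenase. Idh3a, the catalytic one, gave 4591, 4754, 4598, 4937 and 4550 in control and 2510, 3301, 3219, 3408 and 3178 in mdx. Idh3g, a regulatory one, gave 11179, 11432, 12697, 13306 and 11283 in control and 7364, 6518, 9186, 6164 and 7588 in mdx. For both, every mdx array was below every control array. Their log2 changes were -0.54 (SE 0.08, adjusted p = 0.000239) and -0.68 (SE 0.10, adjusted p = 0.000238). A dim further probe set for Idh3g, at means of 372 and 243, did not pass at -0.24 (adjusted p = 0.263).

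Ogdh, the decarboxylase of the 2-oxoglutarate dehydrogenase complex, gave 14328, 15153, 16213, 13105 and 13784 in control and 9236, 9617, 8666, 9217 and 10226 in mdx. With no overlap and a log2 change of -0.61 (SE 0.08, adjusted p = 5.43e-05), it had the smallest p of the cycle. Dlst, the succinyltransferase core of that complex, did not pass, with 2959 to 3419 in control, 2638 to 3258 in mdx and a log2 change of -0.10 (SE 0.07, adjusted p = 0.341). A further Dlst probe set, at means of 2225 and 1845, gave -0.24 and did not pass either (adjusted p = 0.214). The transferase cores of both dehydrogenase complexes, Dlat and Dlst, were thus not called, whereas the decarboxylase subunits Pdha1, Pdhb and Ogdh were. This is a contrast of calls, Dlst was not compared with Ogdh, and Pdha1 was not called under quantile normalization.

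The succinyl-CoA ligase genes, whose products make GTP or ATP, fell in all 3 cases without overlap. Suclg1, the shared alpha subunit, changed by -0.41 (SE 0.08), Suclg2, the GTP-forming beta subunit, by -0.65 (SE 0.12) and Sucla2, the ATP-forming beta subunit, by -0.38 (SE 0.08). A further, dimmer Sucla2 probe set gave -0.54 and was also called lower. Of the 4 succinate dehydrogenase genes, the flavoprotein Sdha (-0.51), the iron-sulfur subunit Sdhb (-0.47) and the membrane anchor Sdhc (-0.39) fell. The other anchor, Sdhd, had 13652 to 15462 in control and 10551 to 14916 in mdx and did not pass, at -0.18 (SE 0.10, adjusted p = 0.188). Fh1, fumarase, fell by 0.29 on the log2 scale (SE 0.08, adjusted p = 0.0153).

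Mdh2 is the mitochondrial malate dehydrogenase that closes the cycle. It gave 28498, 33032, 35163, 30731 and 28795 in control and 19478, 18839, 22213, 19529 and 22926 in mdx, with no overlap. Its log2 change was -0.59 (SE 0.09, adjusted p = 0.000202), but under quantile normalization it was -0.18 and did not pass (adjusted p = 0.0555). Mdh1, the cytosolic form, which works in the malate-aspartate shuttle, had 624 to 867 in control and 532 to 828 in mdx and did not pass, at -0.11 (SE 0.10, adjusted p = 0.435).

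**Figure D2:**
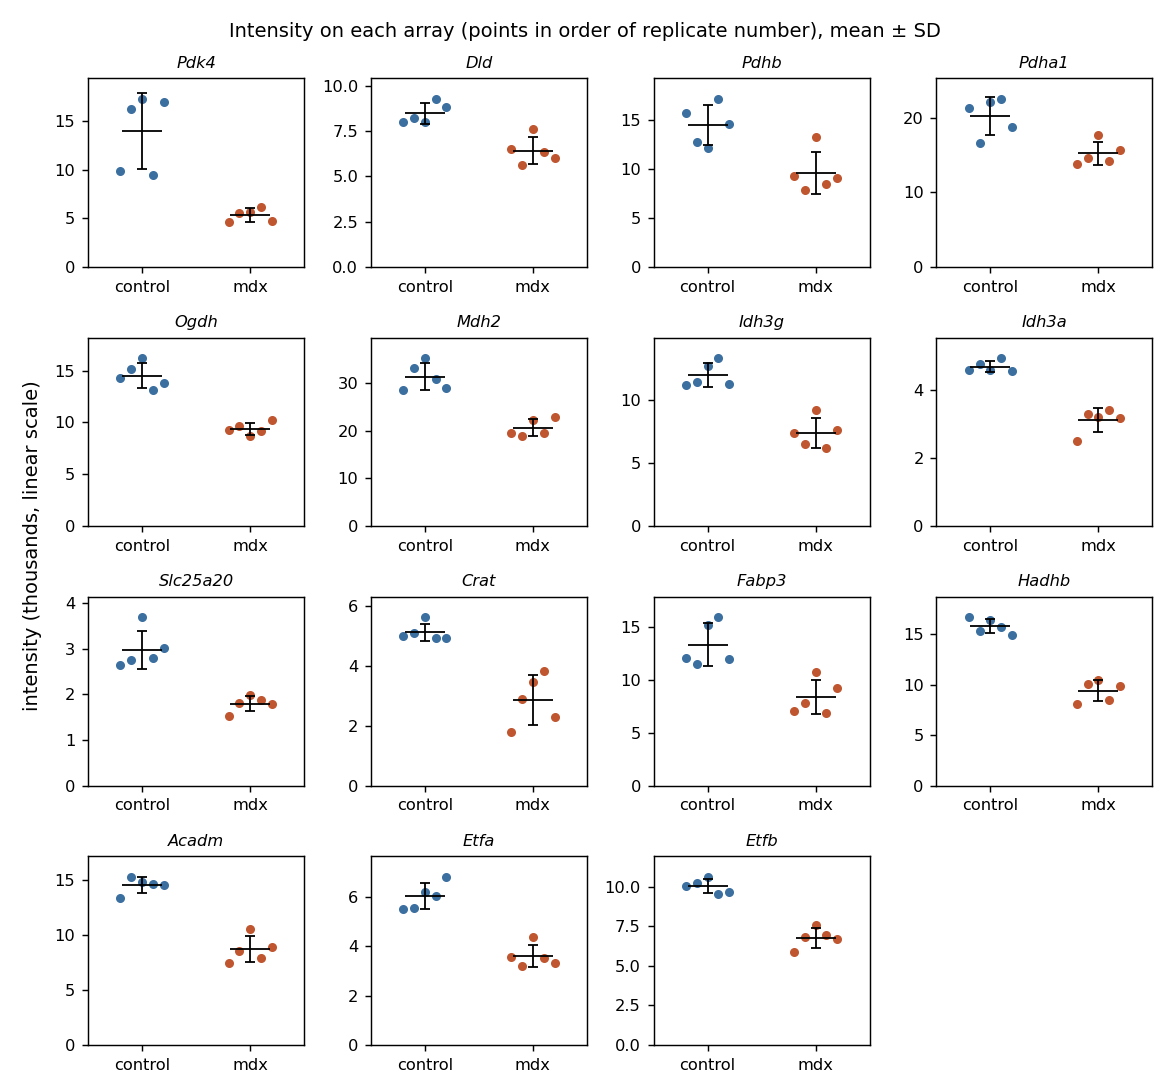
Intensity on each array (y axis, linear scale from 0) of the 15 members with the smallest p of their step, for 5 control and 5 mdx arrays in order of replicate number, with mean and SD as bars. As deposited, the groups overlap for Pdhb and Pdha1 and for none of the other 13. Under hybridization control scaling, 7 of the 15 (Dld, Pdhb, Pdha1, Ogdh, Mdh2, Idh3a and Etfb) have a log2 change above 0.

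The genes of fatty acid uptake and of the carnitine shuttle had the lowest median, -0.64, and that median stayed below 0 under all 5 scalings, at -0.06 with the hybridization controls. Slc25a20, the carrier that exchanges acylcarnitine for carnitine across the inner membrane, gave 2648, 2764, 3691, 2797 and 3021 in control. In mdx it gave 1536, 1801, 1997, 1876 and 1789, all below control, and its log2 change was -0.62 (SE 0.09, adjusted p = 0.000256). Crat, carnitine acetyltransferase, which buffers acetyl-CoA with carnitine, gave 5004, 5106, 5631, 4954 and 4949 in control and 1783, 2913, 3470, 3827 and 2305 in mdx. The mdx arrays spread more widely than the control arrays and none reached them. Its change was -0.81 (SE 0.15, adjusted p = 0.00143), and a further Crat probe set gave -1.03 (adjusted p = 6.98e-05).

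Fabp3, the fatty acid binding protein of heart and oxidative muscle, gave 12054, 11495, 15222, 15904 and 11955 in control and 7092, 7819, 10735, 6898 and 9258 in mdx. The groups did not overlap, and the log2 change was -0.66 (SE 0.13, adjusted p = 0.00215). Cpt2, the inner-membrane palmitoyltransferase that reforms acyl-CoA, had 3775 to 4566 in control and 2934 to 3908 in mdx. It missed the threshold at -0.26 (SE 0.10, adjusted p = 0.0559).

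In beta-oxidation and electron transfer, 12 of 13 members fell and Acads did not pass, with a median of -0.55 that became 0.07 under hybridization control scaling. Acadm, the medium-chain acyl-CoA dehydrogenase, gave 13315, 15263, 14759, 14562 and 14479 in control and 7463, 8500, 10527, 7908 and 8900 in mdx. Its log2 change was -0.73 (SE 0.09, adjusted p = 5.04e-05). Acadl, the long-chain form, changed by -0.55 (SE 0.11, adjusted p = 0.00218), with 2790 to 4524 in control and 2157 to 2673 in mdx. Acads, the short-chain form, had overlapping groups at 1659 to 2375 and 1335 to 1933, and its value was -0.21 (SE 0.11, adjusted p = 0.158). Of the 3 dehydrogenases, the medium- and long-chain ones were thus called and the short-chain one was not, and Acadl was not compared with Acads.

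Hadhb, the thiolase subunit of the trifunctional protein whose upstream stretch is printed above, gave 16695, 15385, 16403, 15711 and 14912 in control. In mdx it gave 8094, 10073, 10465, 8477 and 9890. The groups were far apart relative to their spread, and the log2 change was -0.73 (SE 0.08, adjusted p = 2.33e-05), a fall of 39.9%. Echs1, the short-chain enoyl-CoA hydratase, had 1461 to 1945 in control and 378 to 1006 in mdx, a change of -1.04 (SE 0.14, adjusted p = 0.000119). Echs1 and Pdk4 were the only members called lower under all 5 scalings.

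Hadh, the short-chain hydroxyacyl-CoA dehydrogenase, fell by 0.38 on the log2 scale, and the thiolase Acaa2 fell by 0.49. The auxiliary enzymes for unsaturated fatty acids also fell, Eci1 by 0.46, Ech1 by 0.33 and Decr1 by 0.30, with adjusted p of 0.00979, 0.0206 and 0.0215. These auxiliary enzymes had smaller changes than Acadm or Hadhb, a difference that was not tested. Without mdx replicate 2 or without control replicate 4 or 5, 1 member each was no longer called, in each case Ech1 or Decr1, with adjusted p of 0.0503 to 0.0510.

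The electron transfer flavoprotein and its oxidoreductase pass electrons from the acyl-CoA dehydrogenases to ubiquinone. Etfa, the alpha subunit, gave 5531, 5559, 6211, 6047 and 6834 in control and 3586, 3225, 4392, 3531 and 3317 in mdx. Etfb, the beta subunit, gave 10038, 10262, 10632, 9543 and 9666 in control and 5848, 6804, 7558, 6944 and 6675 in mdx. Neither pair of groups overlapped. The log2 changes were -0.69 (SE 0.09, adjusted p = 8.18e-05) and -0.55 (SE 0.07, adjusted p = 0.000115), and Etfdh, the oxidoreductase, fell by 0.57. A dim further probe set for Etfb, at means of 586 and 368, did not pass at -0.39 (adjusted p = 0.162). In all, 8 further probe sets of members were tested, of which 6 gave the call of the brightest set (for Pcx, uncalled with the opposite sign).

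Within the groups the members also moved together by array. Among the mdx arrays, replicate 3 had the highest value for 23 of the 39 members and replicate 1 the lowest for 14. Among the control arrays, replicate 3 was the highest for 15 and replicate 2 the lowest for 13. Relative to each gene's mean, the median member stood at -0.08 on mdx replicate 3 and between -0.34 and -0.27 on the other mdx arrays, on the log2 scale, and between 0.15 and 0.33 on the control arrays. The members of 1 array share its RNA and its scaling. Mdx replicate 1 was deposited at a trimmed mean of 722, against 800 on the other arrays, a lower level that all its genes share. How such counts fall over all genes was not examined. Leaving out each array in turn left 31 to 33 members called lower.

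**Figure D3:**
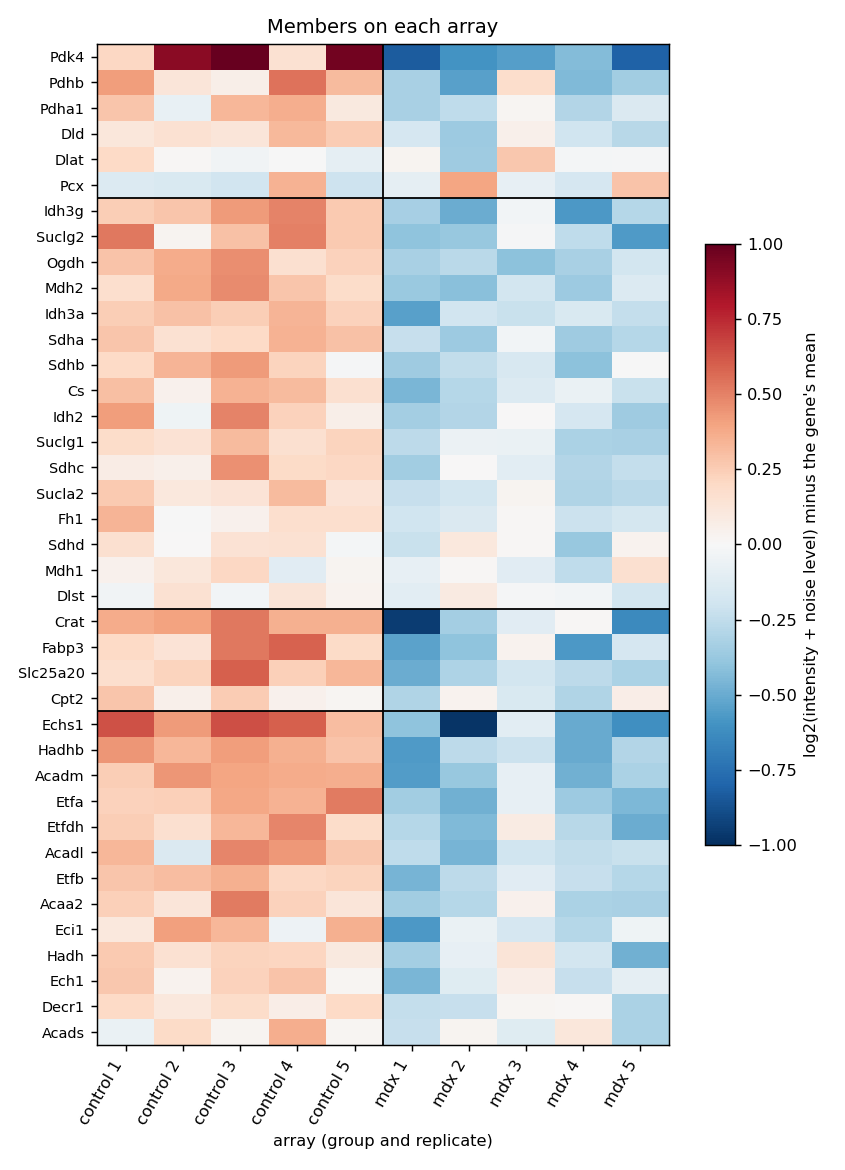
Log2(intensity + noise level) of each tested member (rows, by step) on each array (columns), minus the gene's mean over the 10 arrays, as deposited. Control columns are mostly above the gene means and mdx columns below them, with mdx replicate 3 nearest to them at a median of -0.08. Another scaling shifts whole columns, and under the hybridization controls the median change of the members is 0.14.

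The size and the sign of these changes rest on how the arrays are scaled. As deposited, the arrays had been brought to a common trimmed mean of 800 on 9 of them and 722 on mdx replicate 1. Scaling to 9 spiked-in hybridization control probe sets moved the median of all genes from -0.04 to 0.36, and 2 members then fell, Pdk4 and Echs1. The 4 that rose were Dlat (0.54), Pcx (0.55), Dlst (0.47) and Sdhd (0.44), and among all genes 1.44% were then lower and 47.4% higher. The list of 15 contractile genes used next also holds genes of enzymes and a calcium buffer of fast fibres (Ckm, Pvalb, Eno3 and Pgam2). Scaling to it moved the median gene to 0.26 and left 2 members fallen, again Pdk4 and Echs1, with 1.65% of all genes lower and 29.4% higher. With quantile normalization 25 members fell, and Mdh2, Pdha1, Sucla2, Sdhc, Fh1, Hadh and Ech1 were no longer called. Among all genes 18.4% were then lower and 15.6% higher.

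The place of the members among all genes moved less. Under each of the 5 scalings, 35 to 37 of the 39 members were below the median gene of that scaling. Genes of like brightness were not compared, and most members were brighter than the median gene. The median member was 0.43 below it as deposited, 0.42 with the common trimmed mean, 0.26 with quantile normalization and with contractile genes, and 0.22 with the hybridization controls. Of the 32 members that fell, 11 kept a negative value under all 5 scalings. These were Pdk4, Idh3g, Suclg2, Crat, Fabp3, Slc25a20, Acadm, Hadhb, Echs1, Etfa and Etfdh. They include the 10 largest deposited falls. With the hybridization controls, however, all of them but Pdk4, Echs1 and Crat lay within their SE of 0, such as Etfdh at -0.03 (SE 0.13). Crat was at -0.22 (SE 0.20) and was not called. The 5 scalings are not separate checks, since they include the deposited one and the common trimmed mean, which differs little from it.

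**Figure D4:**
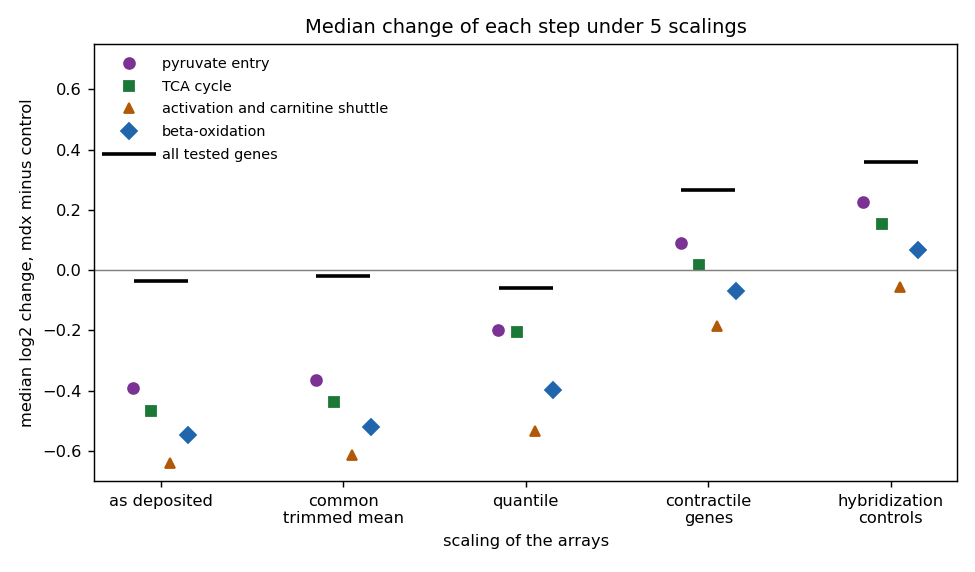
Median log2 change, mdx minus control (y axis), of the members of each step (symbols) and of all tested genes (black lines) under 5 scalings of the arrays (x axis). Each step lies below the black line in every column, while the medians of pyruvate entry and the TCA cycle pass above 0 with the contractile genes, and that of beta-oxidation with the hybridization controls.

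Ratios of members on the same array do not depend on 1 scaling factor when taken on the raw intensities. Of 14 pairs of partner subunits or parallel enzymes planned, 10 had both genes tested. The log2 ratio of each pair was compared between the groups with a two-sided exact permutation test (smallest p 0.00794), adjusted over the 10. The ratios compare groups and are not levels of one gene against another.

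Mdh2 over Mdh1 was the only ratio without overlap, at 4.82 ± 0.10 in control and 4.33 ± 0.15 in mdx (log2, SD, n = 5), a difference of -0.48 (exact permutation adjusted p = 0.0476). Acadm over Acads differed by -0.51, Suclg2 over Sucla2 by -0.26, Dlat over Pdha1 by 0.36 and Pcx over Cs by 0.61, each with the same adjusted p. The Pcx over Cs difference holds for the brightest Pcx probe set, and the other Pcx sets that were fitted had negative values. Suclg2 over Sucla2 likewise rests on the brighter Sucla2 probe set, at -0.38. A further Sucla2 set gave -0.54, nearer to Suclg2 at -0.65, and the ratio was not tested with it. All 5 passed with 2 times the pseudocount and with a robust noise level of 157. With ratios of the raw intensities the differences were -0.43, -0.49, -0.33, 0.37 and 0.70 in the order given, each with an adjusted p of 0.0635. Under quantile normalization Mdh2 over Mdh1 differed by -0.03 (adjusted p = 0.873).

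The other 5 ratios did not pass. Sdha over Sdhb differed by -0.03, Idh2 over Idh3a by 0.08, Etfa over Etfb by -0.14, Decr1 over Eci1 by 0.15 and Pdha1 over Pdhb by 0.19. Their adjusted p lay between 0.238 and 0.802, which does not show that the partners changed alike.

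**Figure D5:**
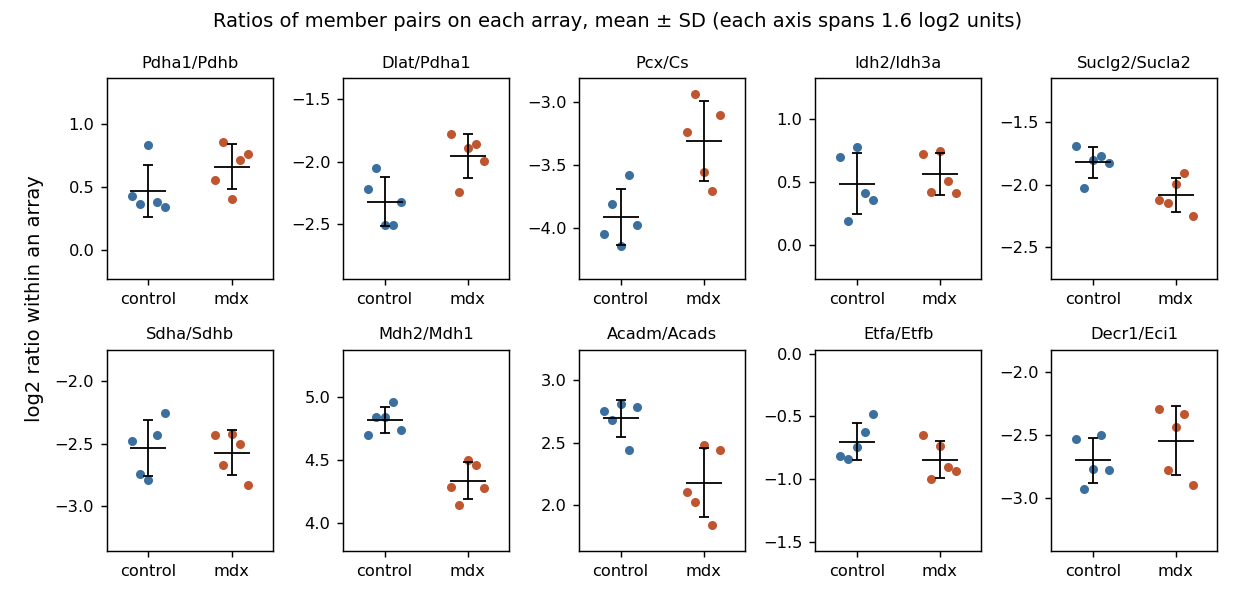
Log2 ratio of 2 members on the same array (y axis, each panel spanning 1.6 log2 units) for 10 pairs, with 5 control and 5 mdx arrays and mean and SD as bars. The ratio of Mdh2 to Mdh1 separates the groups, at means of 4.82 in control and 4.33 in mdx, and the other 9 overlap.

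Further genes that feed or regulate these pathways were more mixed. Of 51 listed, 34 had a probe set and 28 were tested, of which 13 fell (46.4%), 5 rose and 10 did not pass. Among all genes tested, 18.6% were lower and 16.1% higher, and the 5 risen are close to that share. The median of the list was -0.24, which became 0.12 with the contractile genes and 0.23 with the hybridization controls. With the hybridization controls 3 of the list fell and 8 rose, while 1.44% of all genes were lower and 47.4% higher. Among those that fell were Lpl, the lipoprotein lipase that frees fatty acids for uptake (-0.97), and Me1, the cytosolic malic enzyme that makes NADPH for lipid synthesis (-1.01). Ivd, of leucine breakdown, which also hands its electrons to the electron transfer flavoprotein, fell by 0.86 on the log2 scale (adjusted p = 4.32e-06). Ucp3, the uncoupling protein of muscle, fell by 0.61, Mlycd, which removes the inhibitor malonyl-CoA, by 0.54, and Slc25a11, the oxoglutarate carrier, by 0.39.

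Ppara, the nuclear receptor that drives fatty acid oxidation genes, had 857 to 1153 in control and 606 to 737 in mdx and fell by 0.36 (adjusted p = 0.00817). Esrra, the gene of ERR alpha, did not pass with its brightest probe set (-0.24, adjusted p = 0.0972), while a further one fell by 0.64. Cpt1a, the carnitine palmitoyltransferase form typical of liver, rose and was below the noise level on every control array. It reached 397 to 1091 in mdx, at least 1.88-fold higher (adjusted p = 0.000507). Its muscle counterpart Cpt1b had no probe set here. Pdk3, another pyruvate dehydrogenase kinase, was called higher at 0.53 but was below the noise level of 372 in both groups. It reached at most 74.4 in control, below the filter level of 134, and entered the test only through its mdx arrays. Got2, also counted as risen, had a lowest control value of -401, so its control arrays alone could not meet the filter. The reverse held for Slc27a1 and Rxrg, counted as fallen, with lowest mdx values of 86.2 and -253. These counts are thus partly set by the filter.

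As deposited, other gene groups moved with the members, and their part in the result was not tested. The respiratory chain had 19 of 21 tested genes fallen and a median of -0.50, close to the members' -0.47. Glycolysis had 8 of 10 fallen (median -0.54), the contractile genes, which share Eno3 and Pgam2 with it, 10 of 15 (median -0.54, with 1 risen) and the slow-fibre genes 5 of 7 (median -1.0, with 1 risen). As a check of the labelled tissue, 0 of the 15 contractile genes were at or below the noise level on all 10 arrays. With the hybridization controls the medians of the respiratory chain, glycolysis and contractile genes were 0.12, 0.09 and 0.09, beside 0.14 for the members, and that of the slow-fibre genes was -0.38. With quantile normalization the 4 values were -0.21, -0.08, -0.08 and -0.78, beside -0.32 for the members. Whether the members differed from these groups was not tested.

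Macrophage markers rose in 12 of 12 tested genes (median 2.84), and their summed intensity went from 3887 to 8692 in control to 68130 to 90316 in mdx. Of the 13 with a probe set, Itgam was at or below the noise level on all 10 arrays and was not tested. Lgals3 and Cd53 were below the filter level on every control array and entered the test only through their mdx arrays. Adgre1, with control values from -420 to 143, and Cd68, with a lowest control value of 123, also needed mdx arrays to meet the filter. The count of 12 of 12 is thus partly set by the filter. Fibroblast markers rose in 9 of 10 (median 1.75) and 1 fell, while under hybridization control or quantile scaling 10 of 10 rose, with deposited sums of 46894 to 60431 in control and 103234 to 116633 in mdx. The adipocyte list had 1 of 2 tested genes risen and sums of 1404 to 2553 and 2939 to 3352. Both brown adipocyte markers were at or below the noise level on all 10 arrays. Of 5 endothelial genes 1, Vwf, fell and 0 rose (0 and 1 with the hybridization controls). As deposited 18.6% of all genes fell, and with the hybridization controls 47.4% rose. Vwf was at or below the noise level on 4 mdx arrays, and Pecam1 on 4 control and 5 mdx arrays. Actin read 3′ over 5′, a check on degraded RNA, gave a ratio of 1.07 to 1.16 in control and 0.952 to 1.08 in mdx, and that of Gapdh 0.672 to 0.823 and 0.690 to 0.792.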

How the data were processed

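Total RNA of gastrocnemius from 5 control and 5 mdx samples was measured on 10 oligonucleotide arrays, and groups came from the labels' titles and descriptions. The authors deposited linear intensities, 1 per probe set and array, of which 19.7% to 23.8% per array lie below 0, as background subtraction gives. The software and scaling are not given in the sources used here. Genes were named through the platform annotation, and a gene with several probe sets is represented by the brightest. The 66 control probe sets were left out.

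Negative values were replaced by 0, and tests used log2(intensity + 372), where 372 is the root mean square of the 27659 values below 0. Changes of dim genes are therefore understated. Probe sets above 134 (the 40th percentile) on at least 5 of the 10 arrays were tested, 7612 in all, with limma 3.58.1 in R 4.3.3 (variance trend, two-sided, Benjamini-Hochberg). A fold given as at least a value is the geometric mean of the brighter group over the noise level. The scripts were tested on simulated data. The number of arrays limits the precision. Scalings, pseudocounts, filters, a replicate block and left-out arrays were the alternatives.

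The members and lists were chosen with earlier results of these data known. Values on every array are given for the 4 called members of each step with the smallest p and for members whose probe sets disagree, and up to 8 further pathway genes are named by the same order. Echs1, Suclg2, Cs, Ppara, Esrra and the remaining members were described beyond that rule, after their values were seen.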

Additional observations from a re-analysis of the deposited data

Results flagged for a closer look

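In 98 groups of 5 arrays examined for a value standing apart from the other 4, 6 did (Dixon's criterion, gap over range above 0.71), about the 1 in 20 that chance gives. Idh3a on mdx replicate 1 read 2510, below 3178 to 3408 on the other mdx arrays. Acadl on mdx replicate 2 read 2157, below 2548 to 2673. Acaa2 on mdx replicate 3 read 17059, above 12954 to 13524. In control, Pcx on replicate 4 read 917 against 506 to 552, and Crat on replicate 3 read 5631 against 4949 to 5106. The log2 ratio of Pdha1 to Pdhb was 0.838 on control replicate 3 and 0.345 to 0.427 on the others.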

How the results depend on the processing

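All 39 members kept their call, and all but Pcx their direction, with 0.25 or 2 times the pseudocount, the robust noise level of 157 added after seeing the data, no filter, the common trimmed mean, no variance trend and the mean of all probe sets, where Pcx was at -0.16. The filter at the 60th percentile added Cpt2 (33 fell). Of other pathway genes, 2 rose without a filter and 2 with the 60th percentile, where 11.4% and 17.9% of all genes rose.

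With quantile normalization the median of the members was -0.32, of pyruvate entry -0.20, of the TCA cycle -0.20 and of beta-oxidation -0.40, and the uncalled Sdhd and Dlat turned to 0.050 and 0.051. Dlat also turned to 0.012 without control replicate 1 and 0.050 without mdx replicate 2. With the hybridization controls 2 members fell and 4 rose, and 3 other pathway genes fell and 8 rose, beside 1.44% and 47.4% of all genes. The medians were then 0.14 over all members, 0.23 for pyruvate entry, 0.15 for the TCA cycle, -0.055 for the shuttle and 0.065 for beta-oxidation. The sign turned for 27 members, in log2 change Mdh1 0.31, Acads 0.32, Cpt2 0.32, Cs 0.15, Idh2 0.14, Idh3a 0.044, Ogdh 0.013, Dlst 0.47, Dld 0.22, Suclg1 0.20, Sucla2 0.24, Sdha 0.060, Sdhb 0.16, Sdhc 0.23, Sdhd 0.44, Fh1 0.33, Mdh2 0.038, Pdha1 0.23, Pdhb 0.031, Dlat 0.54, Acadl 0.015, Hadh 0.22, Eci1 0.15, Ech1 0.27, Decr1 0.14, Etfb 0.065 and Acaa2 0.13. With the contractile genes 2 members and 4 other pathway genes fell, beside 1.65% of all genes. The medians were then 0.0038 over all members, and 0.089, 0.016, -0.19 and -0.070 in the order of the steps. The sign turned for 19 members, Dlst 0.34, Sdhd 0.31, Mdh1 0.21, Dlat 0.42, Acads 0.20, Cpt2 0.19, Cs 0.016, Idh2 0.0038, Dld 0.089, Suclg1 0.067, Sucla2 0.10, Sdhb 0.017, Sdhc 0.092, Fh1 0.20, Pdha1 0.089, Hadh 0.085, Eci1 0.017, Ech1 0.13 and Decr1 0.043. These scalings shift all genes of an array together. Pcx turned to -1.22 once its control-type probe sets were tested.

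The 5 ratios that passed did not pass under the following settings. For Dlat over Pdha1, Pcx over Cs, Suclg2 over Sucla2, Mdh2 over Mdh1 and Acadm over Acads in turn, the differences were 0.37, 0.67, -0.31, -0.45 and -0.50 with 0.25 times the pseudocount, and 0.37, 0.70, -0.33, -0.43 and -0.49 with none. They were 0.19, 0.35, -0.42, -0.030 and -0.33 with quantile normalization, 0.32, 0.39, -0.31, -0.27 and -0.43 with the hybridization controls, and 0.33, 0.43, -0.30, -0.31 and -0.45 with the contractile genes. Leaving out single arrays gave 0.32 to 0.44, 0.51 to 0.71, -0.31 to -0.22, -0.53 to -0.44 and -0.59 to -0.43, with the call lost in 9 or 10 of the 10 cases for each. The same arrays left out gave 3 to 5 other pathway genes risen. Beyond the scalings, the pseudocount and the array number, the cause was not tested.

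With the replicate number as a block, the differences of the ratios stayed 0.36, 0.61, -0.26, -0.48 and -0.51, none passing because sign flips of 5 pairs cannot go below an exact p of 0.0625. The block left 29 members fallen, without Fh1, Ech1 and Decr1, and 15.8% of all genes lower. It added no call, and the labels do not say that a number pairs arrays. The deviations of same-numbered arrays correlated at -0.160 to 0.044, and 0 of 5 correlated best with their own number.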
